A study of Saccharomyces cerevisiae with 30 samples.

Results

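The mitochondrial respiratory chain and the ATP synthase of budding yeast were followed through 33 nuclear genes that encode their subunits. The genes were taken by name, whatever their signals: the 4 succinate dehydrogenase genes of complex II (SDH1 to SDH4), 9 genes of the cytochrome bc1 complex (complex III), 9 of cytochrome c oxidase (complex IV) and 11 of the ATP synthase (complex V). Each of the 33 had a probe set of its own among the 5656 genes with a single-gene probe set on the array, and all 33 were bright enough to be among the 4242 genes tested. QCR8 and ATP14 had a second probe set, and the brighter one was used.

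Succinate dehydrogenase passes electrons from the tricarboxylic acid cycle to ubiquinone, the bc1 complex passes them on to cytochrome c, and cytochrome c oxidase gives them to oxygen. The bc1 complex and the oxidase pump protons across the inner mitochondrial membrane, and the ATP synthase lets them flow back to make ATP. In budding yeast most of these subunits are encoded in the nucleus, a few are encoded in mitochondrial DNA, and the nuclear genes are known to be held down by glucose and activated by the Hap2/3/4/5 complex when the cells turn to respiration.

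Transcript levels were measured on 30 Affymetrix Yeast S98 arrays in 12 groups, from 4 strains that were untreated or taken 15 or 60 min after UV. All cells were BY4742 with the chromosomal RAD7 gene deleted, so that every strain relied on a plasmid copy of RAD7. Rad7 belongs to a ubiquitin ligase that acts on the DNA damage recognition factor Rad4 after UV. The plasmid carried intact RAD7 (pRAD7, the wildtype control) or RAD7 with mutations in the SOCS box, the motif through which it joins the ligase (psocs). In the other 2 strains RAD23, which encodes the partner of Rad4, was also replaced by URA3 (pRAD7 rad23Δ and psocs rad23Δ). Cells were grown at 30°C to late log phase in minimal medium lacking histidine, and were irradiated with 100 J/m2 of UV light (254 nm). The pRAD7 and psocs groups had 3 arrays each and the rad23Δ groups had 2. The labels call the arrays biological replicates without saying how they were grown, so p-values measure the spread between these samples only. Signals are in the units of the array software, divided so that all arrays have the same median (centred signal), and levels of different genes cannot be ranked because each probe set has its own brightness. A gene was called when its p-value from limma, adjusted by the Benjamini-Hochberg method over all 4242 genes, was under 0.05, and a change is the log2 difference from the untreated arrays of the same strain, given ± its standard error. The untreated arrays of each strain form a single group, without unirradiated arrays for 15 or 60 min. A change after UV may therefore also hold effects of handling or elapsed time, which cannot be told apart here. In RNA from whole cultures, less RNA per cell and fewer cells that hold it cannot be told apart.

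The strain labels were borne out by the genes that define them. The signals of these genes and of the mating-type genes below are given as deposited, before centring. RAD23 was at 605 to 1572 in the 18 arrays of the RAD23 strains and at 1.26 to 4.40 in the 12 rad23Δ arrays, and URA3 was at 0.76 to 9.78 and 241 to 614 in the same arrays. RAD7 was at 242 to 1167 with the pRAD7 plasmid and at 17.4 to 54.2 with the psocs plasmid, so the 2 plasmids also differed in RAD7 signal. The 4 alpha mating-type genes, the mating type of BY4742, had a median of 5301, 6 of 7 a mating-type genes lay under the brightness limit, and so did all 16 sporulation genes. Replicate arrays correlated at 0.970 to 0.992 over all genes.

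A pair of rad23Δ arrays stood apart at 15 min, and the members' counts, medians and order of complexes at 15 min are given with and without them. The mean log2 signal of 37 general stress genes (targets of Msn2 and Msn4) was 9.53 to 10.1 in the RAD23 strains at 15 min, against 6.71 to 7.25 untreated. At 15 min it was 9.96 in replicate 1 and 8.42 in replicate 2 of pRAD7 rad23Δ, and 8.51 in replicate 1 and 10.1 in replicate 2 of psocs rad23Δ. The respiratory members followed the same split: their mean stood 0.29 and 0.31 log2 units above the untreated pRAD7 mean in the low-stress arrays, against 0.84 and 0.80 in their partners. The untreated pRAD7 rad23Δ arrays also lay apart from each other in the members, at 0.42 in replicate 1 and -0.13 in replicate 2, where the 6 untreated arrays of the RAD23 strains lay between -0.06 and 0.06. What sets these arrays apart was not tested.

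**Figure D1:**
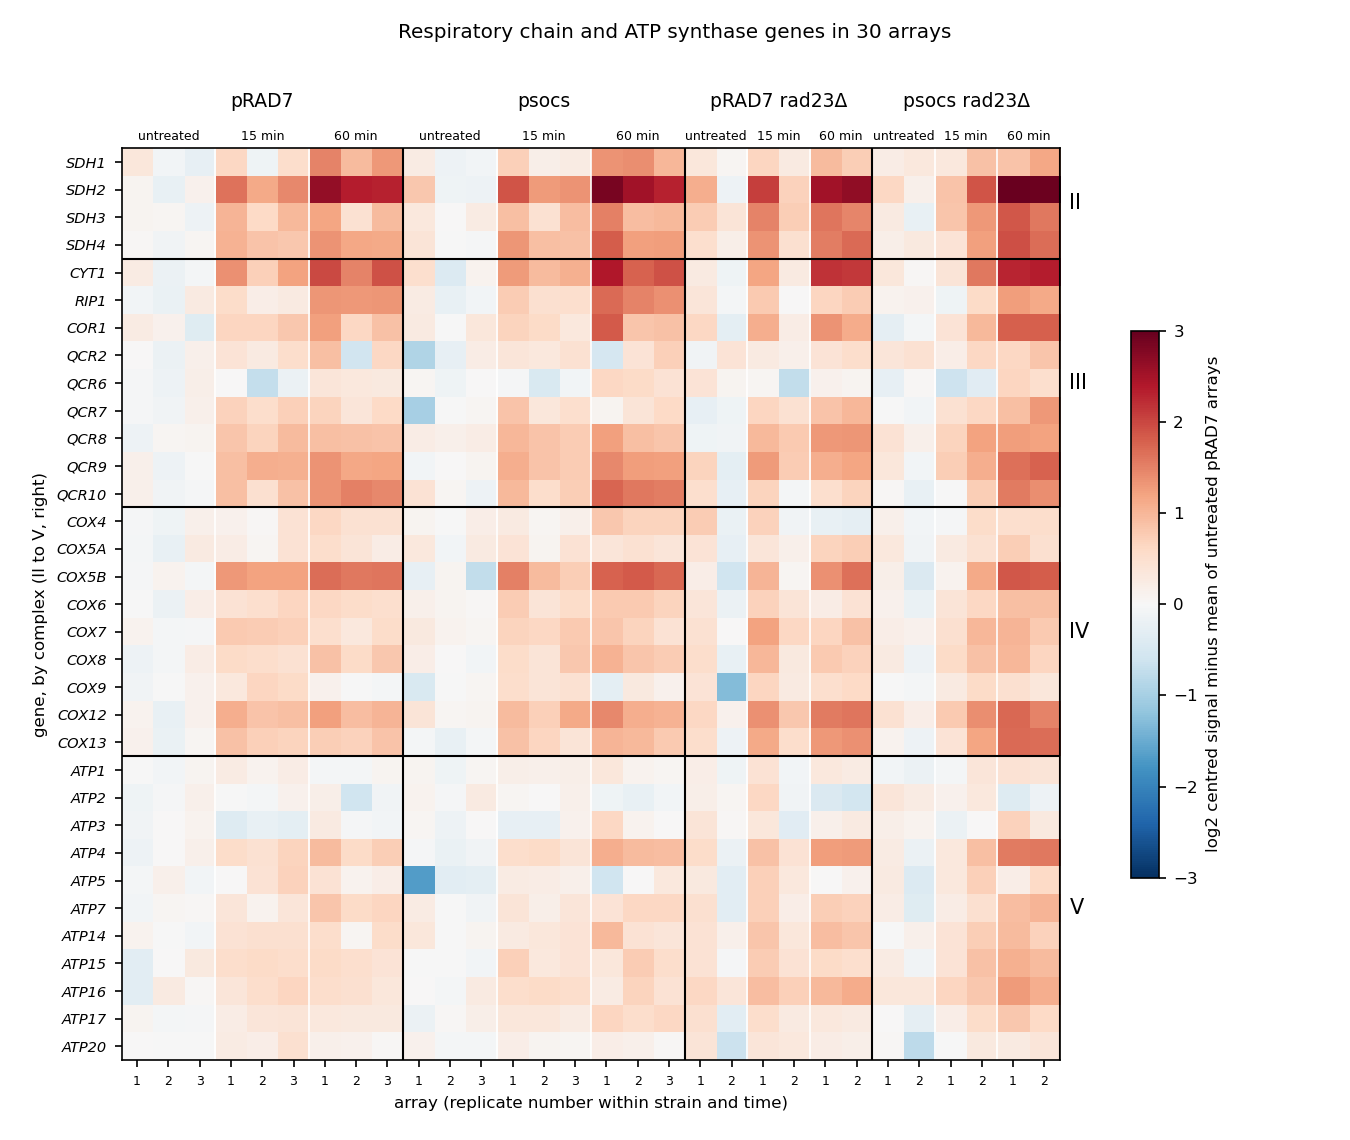
Heat map of the 33 genes (rows, by complex) in the 30 arrays (columns, by strain, time and replicate number). The colour is the log2 centred signal minus the mean of the untreated pRAD7 arrays, with blue below and red above it. Most rows are red at 60 min in every strain, SDH2, CYT1 and COX5B most deeply, and the ATP2 row is not.

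Before UV, no member passed the test between strains. None of the 33 was called in psocs against pRAD7, in pRAD7 rad23Δ against pRAD7, in psocs rad23Δ against psocs or in psocs rad23Δ against pRAD7, where 0.0236%, 1.20%, 1.04% and 0.519% of all genes tested were called in limma. The smallest adjusted p among the 132 tests was 0.110, and 6 of them had an unadjusted p under 0.05. In psocs against pRAD7 the differences ran from -0.76 to 0.20, and for 32 of the 33 genes the 95% interval lay within 2-fold.

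At 60 min after UV most of the respiratory genes were higher in every strain. In pRAD7, 23 of 33 rose and none fell, against 28.7% of all genes called higher and 36.1% called lower. In psocs, 26 rose and none fell (30.8% of all genes higher, 34.0% lower). In pRAD7 rad23Δ, 21 rose and 1 fell (32.6% and 28.2%), and in psocs rad23Δ, 27 rose and 1 fell (31.2% and 28.8%). The members' median log2 change was 0.56 in pRAD7, 0.67 in psocs, 0.60 in pRAD7 rad23Δ and 0.94 in psocs rad23Δ, where the median of all genes tested was -0.11, -0.06, 0.08 and 0.04. The changes were mostly moderate: 9, 11, 11 and 14 members, in the same order, were called with at least a 2-fold increase.

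The same 19 members rose at 60 min in all 4 strains. They were all 4 SDH genes, CYT1, RIP1, COR1, QCR7, QCR8 and QCR9 of complex III, COX5B, COX7, COX8, COX12 and COX13 of complex IV, and ATP4, ATP7, ATP14 and ATP16 of the ATP synthase. For 8 of them, SDH2, SDH4, CYT1, QCR8, COX5B, COX12, COX13 and ATP4, the call held in all 4 strains whichever single array was left out. Counted by strain, 18 of the 23 calls in pRAD7, 21 of 26 in psocs, 9 of 22 in pRAD7 rad23Δ and 22 of 28 in psocs rad23Δ held without any 1 array. Without replicate 2 of the untreated pRAD7 rad23Δ arrays 11 members were called in that strain, and without its replicate 2 at 60 min 14 were. Only QCR2, a core protein of the bc1 complex, and ATP3, the gamma subunit of the rotor, were called in no strain at either time.

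At 15 min the rise was already present in the RAD23 strains. In pRAD7 19 members were higher (23.2% of all genes), and in psocs 19 (21.5%), with none lower in either (14.2% and 12.3% of all genes). Under quantile normalization 12 were higher and 2 lower in pRAD7. The 19 genes of pRAD7 were all still higher at 60 min, and SDH1, RIP1, COX4 and ATP7 joined them there. In the rad23Δ strains fewer passed the test: 5 in pRAD7 rad23Δ (8.84% of all genes) and 9 in psocs rad23Δ (10.2%), with none lower (5.92% and 6.67%). The median change of all members was 0.47 and 0.54 in these strains, against 0.52 in pRAD7 and 0.54 in psocs, and all genes had medians of 0.08 to 0.13. Without the 2 low-stress arrays, a choice made after seeing the data, 12 and 19 members were higher, and the medians of all members were 0.64 and 0.68. In pRAD7 rad23Δ this left out replicate 2 at 15 min but kept untreated replicate 2, the lower of its pair in the members (-0.13 against 0.42). Deviations of same-numbered arrays of these groups correlated at 0.49, so this choice may raise the count and median of that strain. With all arrays, 2 were higher and 1 lower in pRAD7 rad23Δ in the signals as deposited, and 1 and 1 under quantile normalization. The count in pRAD7 rad23Δ ranged from 1, without replicate 2 of the untreated arrays, to 13, without replicate 1 of the untreated arrays, with 2 and 9 called without replicate 1 and without replicate 2 at 15 min. In psocs rad23Δ it was 0 without replicate 2 of the untreated arrays or replicate 2 at 15 min and 17 without replicate 1 at 15 min. No member passed the test for a difference of the 15-min change between strains (psocs, pRAD7 rad23Δ and psocs rad23Δ against pRAD7, and psocs rad23Δ against psocs): limma called 0 of 33, none had an unadjusted p under 0.05, and 0% of all genes were called. Without the 2 low-stress arrays the count was 0 of 33 as well.

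Between 15 and 60 min, 6 members rose further in pRAD7 (19.0% of all genes higher), 10 in psocs (22.2%), 6 in pRAD7 rad23Δ (20.5%) and 14 in psocs rad23Δ (19.5%). ATP2, which encodes the beta subunit of the catalytic head, was the only member that fell in this interval, by 0.73 in pRAD7 rad23Δ, where 24% of all genes were lower (33.3% in pRAD7, 32.1% in psocs and 24.3% in psocs rad23Δ). That call was lost without replicate 1 at 15 min (-0.37, adjusted p = 0.181). Without the 2 low-stress arrays, 1 member rose and 2 fell in pRAD7 rad23Δ, and 4 rose and 1 fell in psocs rad23Δ. These counts also moved with single arrays: to 2 in pRAD7 without replicate 2 at 15 min, to 6 in psocs without replicate 1 at 60 min, and to 2 in psocs rad23Δ without replicate 1 at 15 min. In pRAD7 rad23Δ 12 were called without replicate 1 at 15 min, 2 without replicate 2 at 15 min, 3 without replicate 1 at 60 min and 2 without replicate 2 at 60 min. The share of members that rose after 15 min in the RAD23 strains depended on scaling, since 21 rose in pRAD7 and 23 in psocs in the signals as deposited, where the median of all genes itself stood at 0.26 and 0.20 in this interval.

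The complexes had different median changes. At 60 min the median change was highest for complex II, followed by complex III, complex IV and complex V, in each of the 4 strains. In pRAD7 it was 1.23 for complex II, 0.92 for complex III, 0.56 for complex IV and 0.31 for the ATP synthase. In psocs the medians were 1.28, 0.98, 0.66 and 0.45 in the same order, in pRAD7 rad23Δ 1.12, 0.95, 0.60 and 0.32, and in psocs rad23Δ 1.63, 1.14, 0.77 and 0.75. All 4 complex II genes rose in every strain. Complex III had 7, 8, 6 and 8 of 9 genes higher in pRAD7, psocs, pRAD7 rad23Δ and psocs rad23Δ, complex IV had 7 of 9 in each, and complex V had 5, 7, 4 and 8 of 11. Of all genes 28.7%, 30.8%, 32.6% and 31.2% were called higher. The complex V count in pRAD7 rad23Δ was near that share and is no result about the complex. The order held in 119 of the 120 values obtained by leaving out 1 array, but most of these could not move. An array outside the untreated and 60-min groups of a strain leaves its medians unchanged. The order held in 3 of 4 strains under quantile normalization, where complexes IV and V of psocs rad23Δ changed places (0.58 and 0.66 over all members of each), and with the mean of each gene's probe sets (0.77 and 0.82). The order is a description of these medians, since members of 1 complex are not replicates and no test of the order was made. At 15 min the same order was seen in 3 of 4 strains, with medians of 0.88, 0.70, 0.54 and 0.33 in pRAD7, in 89 of the 120 values with 1 array left out, in 3 of 4 strains without the 2 low-stress arrays and in 2 of 4 with the mean of each gene's probe sets. Most of the 120 values at 15 min could not move either.

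**Figure D2:**
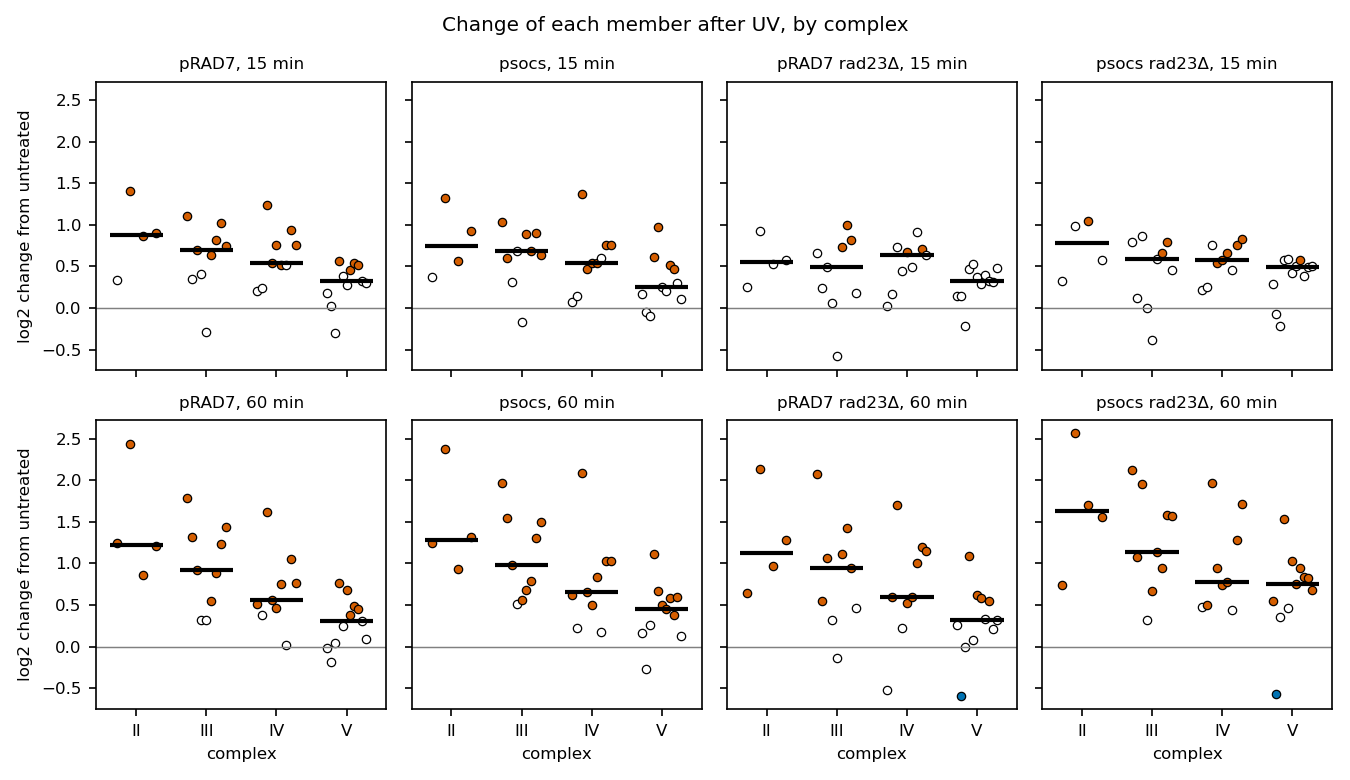
Log2 change of each member from the untreated arrays of its strain (vertical axis) by complex (horizontal axis), at 15 min (top row) and 60 min (bottom row) in the 4 strains. Orange points were called higher, blue points lower and white points were not called, and the bar is the median of the complex. At 60 min the bars step down from complex II to complex V, and the only blue points are ATP2 in the rad23Δ strains.

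Complex II was the only complex of which every member rose at 60 min in every strain. SDH2, which encodes the iron-sulphur subunit, had the largest change of all members at 60 min in each strain. In pRAD7 its signal was 349, 283 and 363 untreated, 1023, 726 and 894 at 15 min and 2055, 1687 and 1632 at 60 min. In psocs it was 580.2, 301 and 298 untreated, 1226, 800.0 and 835 at 15 min and 2382, 1891 and 1627 at 60 min. In both strains the 3 times did not overlap, and each step was upward. In pRAD7 rad23Δ SDH2 was at 700.2 and 295 untreated, 1383 and 537 at 15 min and 1900.2 and 2079.8 at 60 min, and in psocs rad23Δ at 508 and 368 untreated, 601 and 1221 at 15 min and 2572 and 2544 at 60 min. Here the 60-min arrays stood above all others, while at 15 min the low-stress array of pRAD7 rad23Δ (537) lay within the untreated range and that of psocs rad23Δ (601) just above it. The change at 60 min was 2.43 ± 0.33 in pRAD7 (adjusted p = 1.06e-06), 2.38 ± 0.33 in psocs (1.35e-06), 2.13 ± 0.41 in pRAD7 rad23Δ (0.00011) and 2.56 ± 0.41 in psocs rad23Δ (1.35e-05).

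SDH1, the flavoprotein that oxidises succinate, moved late in the RAD23 strains. In pRAD7 it was at 220.3, 165 and 148 untreated, 269, 161 and 252 at 15 min and 495, 337 and 431 at 60 min. In psocs the values were 207, 157 and 166 untreated, 289, 199 and 206 at 15 min and 449, 459.7 and 349 at 60 min. In both strains the 15-min arrays overlapped the untreated ones and the 60-min arrays lay above both. In pRAD7 rad23Δ SDH1 was at 222 and 183 untreated, 274 and 212 at 15 min and 336 and 295 at 60 min, and in psocs rad23Δ at 203 and 219.6 untreated, 217 and 323 at 15 min and 318 and 395 at 60 min. The 60-min arrays again exceeded the untreated ones. SDH1 rose by 1.24 ± 0.22 in pRAD7 and 1.25 ± 0.22 in psocs at 60 min, and by 0.91 ± 0.22 and 0.87 ± 0.22 between 15 and 60 min. In the rad23Δ strains SDH1 was not called between 15 and 60 min. The change at 60 min was 0.64 ± 0.26 in pRAD7 rad23Δ (adjusted p = 0.039), where the call was lost without untreated replicate 2 (0.50), 60-min replicate 1 (0.55) or 60-min replicate 2 (0.74). It was 0.75 ± 0.26 in psocs rad23Δ (adjusted p = 0.018), lost without untreated replicate 1 (0.69) or 60-min replicate 2 (0.59).

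SDH3 and SDH4 encode the membrane anchor that holds the enzyme in the inner membrane. SDH3 in pRAD7 was at 698, 685 and 590.3 untreated, 1335, 989 and 1296 at 15 min and 1493, 899.8 and 1274 at 60 min, and in psocs at 823, 659 and 777 untreated, 1233, 895 and 1242 at 15 min and 1877, 1239 and 1277 at 60 min. SDH3 in pRAD7 rad23Δ was at 1119 and 858 untreated, 1826 and 1100.2 at 15 min and 2004 and 1824 at 60 min, and in psocs rad23Δ at 790.1 and 559 untreated, 1168 and 1613 at 15 min and 2373 and 1961 at 60 min. All 60-min arrays exceeded the untreated arrays of their strain, and the 15- and 60-min arrays overlapped in all strains but psocs rad23Δ. SDH3 rose by 0.87, 0.94, 0.96 and 1.70 at 60 min in pRAD7, psocs, pRAD7 rad23Δ and psocs rad23Δ, with adjusted p-values of 0.00146, 0.000688, 0.00373 and 1.33e-05. The call in pRAD7 rad23Δ was lost without untreated replicate 2 (0.77, adjusted p = 0.0528). SDH4 in pRAD7 was at 622, 557 and 631 untreated, 1238, 1083 and 1060.0 at 15 min and 1530.2, 1336 and 1318 at 60 min, and in psocs at 783, 596 and 592 untreated, 1511, 1132 and 1107 at 15 min and 2119, 1404 and 1429 at 60 min. SDH4 in pRAD7 rad23Δ was at 851 and 678 untreated, 1534 and 843 at 15 min and 1749 and 1954 at 60 min, and in psocs rad23Δ at 685 and 741 untreated, 805 and 1412 at 15 min and 2319 and 1917 at 60 min. All UV arrays of the RAD23 strains exceeded their untreated arrays, whereas in the rad23Δ strains the low-stress arrays at 15 min (843 and 805) were close to the untreated ones. SDH4 rose at 60 min by 1.21 ± 0.21, 1.31 ± 0.21, 1.28 ± 0.26 and 1.56 ± 0.26 in the same order of strains.

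In complex III the largest rise was that of a catalytic subunit. CYT1 encodes cytochrome c1, which hands electrons to cytochrome c. Its signal in pRAD7 was 263, 197 and 214 untreated, 581, 368 and 514 at 15 min and 885, 626 and 833 at 60 min. In psocs it was 314, 167 and 240.1 untreated, 543, 431 and 467 at 15 min and 1176, 765 and 845 at 60 min. The 3 times were separate and ascending in both strains. In pRAD7 rad23Δ CYT1 was at 270.5 and 202 untreated, 506 and 269 at 15 min and 1009 and 969 at 60 min, and in psocs rad23Δ at 284 and 227 untreated, 289 and 673 at 15 min and 1079 and 1134 at 60 min. The low-stress arrays at 15 min (269 and 289) were at or just above the untreated level, and their partners lay between untreated and 60 min. At 60 min CYT1 rose by 1.79 ± 0.28 in pRAD7, 1.97 ± 0.28 in psocs, 2.08 ± 0.34 in pRAD7 rad23Δ and 2.12 ± 0.34 in psocs rad23Δ, with adjusted p-values from 1.55e-06 to 1.79e-05. RIP1, the Rieske iron-sulphur protein, rose by 1.31, 1.54 and 1.08 in pRAD7, psocs and psocs rad23Δ. In pRAD7 rad23Δ its change was 0.55 (adjusted p = 0.0449), close enough to the threshold that leaving out any of 11 arrays ended the call, 3 of them its own (untreated replicate 2, 0.34; 60-min replicate 1, 0.61; 60-min replicate 2, 0.49) and 8 of other groups, which left the change at 0.55.

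The core proteins, COR1 and QCR2, related to mitochondrial processing peptidases, had unlike values. COR1 rose by 0.92, 0.98, 1.06 and 1.96 at 60 min, and in pRAD7 rad23Δ the call was lost without untreated replicate 2 (0.61) or 60-min replicate 1 (0.95). QCR2 had changes of 0.32, 0.51, 0.33 and 0.32, none of which passed, and its arrays were scattered, with 1873, 682 and 1553 in pRAD7 at 60 min against 1025, 891 and 1128 untreated. Whether COR1 and QCR2 differ was not tested.

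The small subunits of complex III, which brace its catalytic core, were mostly higher too, with 4, 5, 3 and 5 of 5 called at 60 min. The shares of all genes called higher were 28.7%, 30.8%, 32.6% and 31.2%. QCR9 in pRAD7 was at 779, 630.0 and 696 untreated, 1313, 1497 and 1468 at 15 min and 1776, 1565 and 1584 at 60 min, and in psocs it was at 657, 707 and 746 untreated, 1491, 1266 and 1188 at 15 min and 1902, 1669 and 1653 at 60 min. QCR9 in pRAD7 rad23Δ was at 1117 and 574 untreated, 1682 and 1191 at 15 min and 1489 and 1597 at 60 min, and in psocs rad23Δ at 886 and 655 untreated, 1161 and 1493 at 15 min and 2189 and 2375 at 60 min. Every UV array lay above the untreated arrays of its strain, and most of the gain was present by 15 min except in psocs rad23Δ. QCR9 was higher at 60 min by 1.23 ± 0.18, 1.31 ± 0.18, 0.95 ± 0.22 and 1.58 ± 0.22 in pRAD7, psocs, pRAD7 rad23Δ and psocs rad23Δ, the third of which was lost without untreated replicate 2 (0.47, adjusted p = 0.0717). QCR8 rose by 0.89, 0.79, 1.42 and 0.94. QCR7 rose by 0.55, 0.68, 1.11 and 1.14, and its call was lost in pRAD7 without untreated replicate 2 (0.49), 60-min replicate 1 (0.48) or 60-min replicate 3 (0.52) and in psocs without untreated replicate 1 (0.34).

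QCR6, the acidic hinge protein between cytochrome c1 and cytochrome c, had the lowest mean change of complex III and a course of its own. Its pRAD7 signal was 670.0, 609 and 775 untreated, 685, 415 and 607 at 15 min and 882, 842 and 838 at 60 min, and in psocs it was at 713, 618 and 687 untreated, 664, 496 and 648 at 15 min and 1046, 1015 and 923 at 60 min. In pRAD7 rad23Δ QCR6 was at 904 and 716 untreated, 712 and 411 at 15 min and 739 and 727 at 60 min, and in psocs rad23Δ at 579 and 698 untreated, 443 and 538 at 15 min and 1060.1 and 958 at 60 min. The 15-min arrays reached below the untreated ones in every strain, and the 60-min arrays lay above both in 3 strains and among the untreated ones in pRAD7 rad23Δ. None of the 15-min changes passed (-0.29, -0.17, -0.57 and -0.38). From 15 to 60 min QCR6 rose by 0.62 ± 0.18 in pRAD7, 0.73 ± 0.18 in psocs and 1.05 ± 0.22 in psocs rad23Δ, the first of which was lost without 15-min replicate 2 (0.40, adjusted p = 0.0788). Against untreated, it was higher at 60 min in psocs (0.57) and in psocs rad23Δ (0.67), the latter not without untreated replicate 1 (0.53) or 60-min replicate 1 (0.59).

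Cytochrome c oxidase carries either of a pair of Cox5 isoforms, of which Cox5a is known as the aerobic form and Cox5b as the form used at low oxygen. COX5B was at 265, 289.7 and 259 in untreated pRAD7, 672, 621 and 621 at 15 min and 859, 810.3 and 821 at 60 min. In psocs it was at 227, 287 and 164 untreated, 776, 521 and 452 at 15 min and 929.8, 972 and 896 at 60 min. In both strains the groups were separate, and the 15-min arrays were already well above untreated. COX5B in pRAD7 rad23Δ was at 311 and 179.6 untreated, 551 and 282 at 15 min and 697 and 849.5 at 60 min, and in psocs rad23Δ at 307 and 199.8 untreated, 289.7 and 600.4 at 15 min and 979 and 961 at 60 min. At 15 min the low-stress arrays (282 and 290) fell within the untreated range. COX5B rose at 60 min by 1.61 ± 0.27 in pRAD7 (adjusted p = 1.45e-05), 2.08 ± 0.27 in psocs (4.23e-07), 1.70 ± 0.33 in pRAD7 rad23Δ (0.000119) and 1.97 ± 0.33 in psocs rad23Δ (2.32e-05).

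COX5A was not called in the RAD23 strains. Its pRAD7 arrays were at 577, 519 and 729 untreated, 706, 628 and 815 at 15 min and 875, 785 and 705 at 60 min, and in psocs at 745, 572 and 723 untreated, 803, 640.1 and 816 at 15 min and 778, 823 and 769.8 at 60 min. In pRAD7 rad23Δ COX5A was at 807 and 511 untreated, 777 and 673 at 15 min and 949.8 and 999.7 at 60 min, and in psocs rad23Δ at 750.1 and 560.4 untreated, 726 and 828 at 15 min and 1000.4 and 837 at 60 min. The groups overlapped in pRAD7, and only the 60-min arrays of the other strains cleared the untreated ones. The changes at 60 min were 0.38 ± 0.17 in pRAD7 (adjusted p = 0.0525) and 0.23 ± 0.17 in psocs (0.251), neither of which passed. In pRAD7 rad23Δ the change of 0.60 ± 0.21 passed (0.0158) but not without untreated replicate 2 (0.27) or 60-min replicate 2 (0.56), and in psocs rad23Δ that of 0.50 ± 0.21 passed (0.0433) but not without untreated replicate 2 (0.29) or 60-min replicate 1 (0.37). A difference between the isoforms was not tested.

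Of the other oxidase subunits, COX12 and COX13, both small subunits at the periphery of the enzyme, changed the most. COX12 in pRAD7 was at 1100.4, 876 and 1114 untreated, 2163, 1839.6 and 1901 at 15 min and 2389, 1934 and 2068 at 60 min, and in psocs at 1332, 1062 and 1092 untreated, 1989.8, 1678 and 2249 at 15 min and 2799, 2193 and 2121 at 60 min. COX12 in pRAD7 rad23Δ was at 1581 and 1124 untreated, 2638 and 1798 at 15 min and 3008 and 3122 at 60 min, and in psocs rad23Δ at 1400.0 and 1179 untreated, 1764 and 2678 at 15 min and 3389.8 and 2888 at 60 min. No UV array overlapped the untreated arrays of its strain. COX12 rose at 60 min by 1.05 ± 0.18, 1.03 ± 0.18, 1.20 ± 0.22 and 1.28 ± 0.22 in pRAD7, psocs, pRAD7 rad23Δ and psocs rad23Δ. COX13 in pRAD7 was at 703, 562 and 666 untreated, 1184, 1055 and 1024 at 15 min and 1077, 1037 and 1159 at 60 min, and in psocs at 611, 552 and 616 untreated, 1176, 1010.0 and 843 at 15 min and 1293, 1248 and 1111 at 60 min. COX13 in pRAD7 rad23Δ was at 929 and 575 untreated, 1403 and 923 at 15 min and 1576 and 1667 at 60 min, and in psocs rad23Δ at 688 and 575 untreated, 850.3 and 1460.0 at 15 min and 2083 and 2037 at 60 min. The 15- and 60-min arrays overlapped in the RAD23 strains, and the 60-min arrays of psocs rad23Δ were the highest of the 30. COX13 rose at 60 min by 0.77 ± 0.19, 1.04 ± 0.19, 1.15 ± 0.23 and 1.71 ± 0.23.

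COX4, which encodes a zinc-binding subunit, had the lowest mean change of complex IV. The pRAD7 arrays were at 543, 506 and 617 untreated, 607, 570.2 and 741 at 15 min and 851, 759 and 763 at 60 min, and in psocs at 587, 552 and 631 untreated, 671, 576 and 617 at 15 min and 968, 874 and 877 at 60 min. The 60-min arrays were above all others in both strains, while those at 15 min overlapped the untreated ones. In pRAD7 rad23Δ COX4 was at 936 and 478 untreated, 901 and 516 at 15 min and 471 and 463 at 60 min, and in psocs rad23Δ at 617 and 524 untreated, 540.0 and 813 at 15 min and 789.8 and 798 at 60 min. The 60-min arrays of pRAD7 rad23Δ were the lowest of that strain, just under its lower untreated array. COX4 rose at 60 min by 0.51 ± 0.20 in pRAD7 (adjusted p = 0.0294) and 0.62 ± 0.20 in psocs (0.00953), the former not without untreated replicate 1 (0.50), untreated replicate 2 (0.45) or 60-min replicate 1 (0.46). Its changes of -0.52 ± 0.25 in pRAD7 rad23Δ and 0.48 ± 0.25 in psocs rad23Δ did not pass (0.0718 and 0.095).

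The remaining oxidase genes encode small subunits. COX7 rose by 0.46 to 0.74 at 60 min across the 4 strains, COX8 by 0.60 to 0.84, and COX6 in 3 of them by 0.56 to 0.95 (0.23, not called, in pRAD7 rad23Δ). COX9 was called in pRAD7 rad23Δ alone, at 1.00, against 0.02 in pRAD7, 0.18 in psocs and 0.44 in psocs rad23Δ. The untreated arrays of that strain stood at 1309.9 and 399.7, and the call was lost without replicate 2 (0.15, adjusted p = 0.612). In pRAD7 rad23Δ the COX7 call was lost without untreated replicate 2 (0.31) or 60-min replicate 2 (0.41), and the COX8 call without untreated replicate 2 (0.22), 60-min replicate 1 (0.56) or 60-min replicate 2 (0.64). The COX8 call in psocs rad23Δ was lost without untreated replicate 2 (0.57) or 60-min replicate 1 (0.60).

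In the ATP synthase most genes of the peripheral stalk were called higher, though several of these calls were lost without single arrays. Of the 4 stalk genes (ATP4, ATP5, ATP7 and ATP14), which encode the stator that holds the head still, 3 were higher at 60 min in pRAD7, 4 in psocs and 3 in each rad23Δ strain, with medians of 0.53, 0.59, 0.61 and 0.89. Of the 5 head and central rotor genes of the F1 sector (ATP1, ATP2, ATP3, ATP15 and ATP16), 2, 2, 1 and 3 were higher and, in the rad23Δ strains, 1 was lower, with medians of 0.05, 0.26, 0.26 and 0.55. ATP17 and ATP20, subunits f and g of the membrane sector, had 0, 1, 0 and 2 calls, of which ATP20 in psocs rad23Δ (0.68) was lost without untreated replicate 2 (0.27) or 60-min replicate 2 (0.64). Of all genes 28.7%, 30.8%, 32.6% and 31.2% were called higher in the 4 strains, and 28.2% and 28.8% lower in the rad23Δ strains. With so few genes, the counts of the F1 and membrane sectors are no result about these parts.

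ATP4, which encodes stalk subunit b, changed the most in this complex. Its signal in pRAD7 was 540.3, 606 and 668 untreated, 888, 831 and 951 at 15 min and 1171, 903 and 1009.7 at 60 min, and in psocs at 583, 522 and 557 untreated, 862, 893 and 784 at 15 min and 1281, 1163 and 1145 at 60 min. In pRAD7 rad23Δ ATP4 was at 877 and 535 untreated, 1116 and 807 at 15 min and 1439 and 1469 at 60 min, and in psocs rad23Δ at 710.3 and 532 untreated, 751 and 1127 at 15 min and 1766 and 1802 at 60 min. Untreated and 60-min arrays were separate in every strain. ATP4 rose at 60 min by 0.76 ± 0.17, 1.11 ± 0.17, 1.09 ± 0.21 and 1.54 ± 0.21 in pRAD7, psocs, pRAD7 rad23Δ and psocs rad23Δ, with adjusted p-values from 1.94e-06 to 0.00045. ATP7 and ATP14, stalk subunits d and h, rose by 0.51 to 1.03 and by 0.38 to 0.75, and ATP5, the oligomycin sensitivity protein at the top of the stalk, in psocs alone (0.67, which fell to 0.22 without untreated replicate 1, where ATP5 was at 153 against 391 and 401 in the other replicates). In psocs 2 other arrays of its own ended the ATP5 call, 60-min replicates 2 (0.62) and 3 (0.47), and so did 9 arrays of groups outside the comparison, which left the change at 0.67. The ATP7 call was lost in pRAD7 rad23Δ without untreated replicate 2 (0.23), 60-min replicate 1 (0.61) or 60-min replicate 2 (0.65) and in psocs without untreated replicate 3 (0.44), and the ATP14 calls were lost in pRAD7 without any 1 of 7 arrays (0.30 to 0.38), in psocs without any 1 of 3 (untreated replicates 2 and 3 and 60-min replicate 1, 0.26 to 0.42) and in pRAD7 rad23Δ without untreated replicate 2 or 60-min replicate 1 (0.45 to 0.53).

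In the F1 sector, ATP15 and ATP16, the epsilon and delta subunits of the rotor, followed the rise. ATP15 in pRAD7 was at 1096, 1376 and 1652 untreated, 1940.1, 2033 and 1938 at 15 min and 2019, 1908 and 1804 at 60 min, and in psocs at 1345, 1340.0 and 1278 untreated, 2242, 1689 and 1789 at 15 min and 1710.5, 2312 and 1954 at 60 min. ATP15 in pRAD7 rad23Δ was at 1840.4 and 1316 untreated, 2282 and 1834 at 15 min and 2011 and 1909.8 at 60 min, and in psocs rad23Δ at 1607 and 1255 untreated, 1798 and 2504 at 15 min and 2850.1 and 2609 at 60 min. In the RAD23 strains all UV arrays exceeded the untreated ones and the 2 UV times overlapped. ATP15 rose at 60 min by 0.49 ± 0.16 in pRAD7, 0.58 ± 0.16 in psocs and 0.94 ± 0.20 in psocs rad23Δ, the first not without untreated replicate 1 (0.34, adjusted p = 0.0926), and its change of 0.33 in pRAD7 rad23Δ did not pass. ATP16 rose by 0.38 to 0.84 across the strains, and the call was lost in pRAD7 without untreated replicate 1 (0.29), in psocs without any 1 of 3 arrays, untreated replicates 1 and 2 and 60-min replicate 2 (0.27 to 0.35), and in pRAD7 rad23Δ without untreated replicate 2 or 60-min replicate 2 (0.41 to 0.48). ATP1, the alpha subunit, was called in psocs rad23Δ alone (0.55), with -0.01, 0.16 and 0.26 in the other strains.

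ATP2, the beta subunit that carries the catalytic sites, had the lowest mean change of the 33 genes. The pRAD7 values were 1601, 1694 and 1932 untreated, 1732, 1674 and 1913 at 15 min and 1951, 1146 and 1601 at 60 min, and in psocs it was at 1869.8, 1699 and 2090.0 untreated, 1796, 1748 and 1916 at 15 min and 1577, 1480.1 and 1634 at 60 min. In pRAD7 rad23Δ ATP2 was at 1950.3 and 1798 untreated, 2673 and 1601 at 15 min and 1295 and 1193 at 60 min, and in psocs rad23Δ at 2225 and 2054 untreated, 1902 and 2166 at 15 min and 1319 and 1568 at 60 min. The 60-min arrays were below the untreated ones in both rad23Δ strains and in psocs, and overlapped them in pRAD7. Its changes were -0.18 ± 0.17 in pRAD7 and -0.27 ± 0.17 in psocs, which did not pass, and -0.59 ± 0.20 in pRAD7 rad23Δ (adjusted p = 0.0152) and -0.57 ± 0.20 in psocs rad23Δ (0.0187), which did. The call in pRAD7 rad23Δ was lost without untreated replicate 1 or 60-min replicate 2 (-0.53 in each case), and that in psocs rad23Δ without untreated replicate 1 (-0.51) or 60-min replicate 1 (-0.45). The difference between the rad23Δ and RAD23 strains in ATP2 did not pass.

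No member passed the test for a difference between psocs and pRAD7 in this response. The difference between the psocs and pRAD7 changes at 60 min ran from -0.18 to 0.47 over the 33 genes, none was called, none had an unadjusted p under 0.05, and limma called 0% of all genes. All 33 of the 95% intervals held 0. For 29 genes the interval lay within a 2-fold difference either way, with a median half-width of 0.55, and the widest bounds were -1.03 and 1.27. At 15 min the differences ran from -0.38 to 0.59, and again all 33 intervals held 0 and 29 lay within 2-fold. A difference smaller than these intervals was not detectable with 3 arrays a group.

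Few members passed the test for a 60-min response that differed with and without RAD23. In pRAD7 rad23Δ against pRAD7, 2 members responded less (11.4% of all genes) and none responded more (18.6%, 30.0% in either direction), and 5 had an unadjusted p under 0.05. In psocs rad23Δ against psocs, none of the 33 was called, against 9.38% of all genes in either direction (5.14% more and 4.24% less), and 4 had an unadjusted p under 0.05. In psocs rad23Δ against pRAD7, 1 member responded more (7.50% of all genes) and none less (3.77%, 11.3% in either direction), and 6 had an unadjusted p under 0.05. None of these counts exceeds the share called among all genes. Over the 33 genes the changes at 60 min correlated at r = 0.97 between pRAD7 and psocs, 0.75 between pRAD7 and pRAD7 rad23Δ and 0.86 between psocs and psocs rad23Δ. These values describe genes on shared arrays, not replicates.

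**Figure D3:**
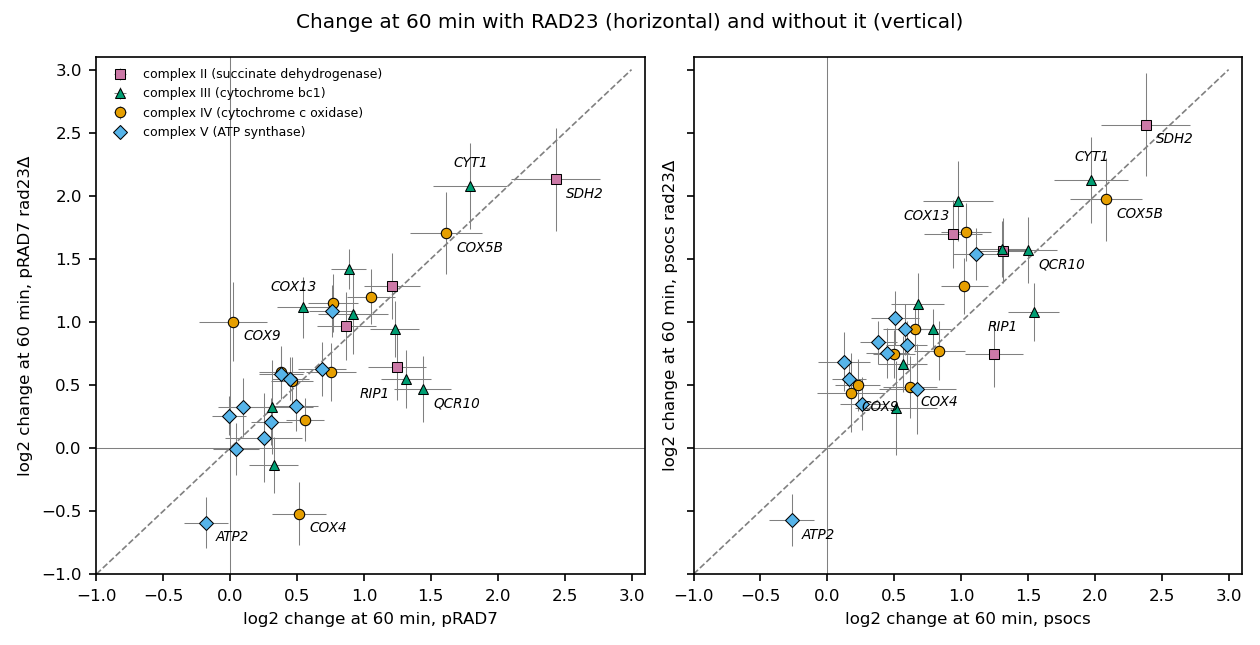
Log2 change of each member at 60 min with RAD23 (horizontal axis) and without it (vertical axis), for the pRAD7 strains (left) and the psocs strains (right). Points are the fitted changes, bars their standard errors and the dashed line marks equal change. COX4 and QCR10 lie below the line in the left panel and close to it in the right panel.

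QCR10, a small bc1 subunit, was the first of the 2 members that responded less in pRAD7 rad23Δ. In pRAD7 it was at 282, 235 and 246 untreated, 472, 353 and 464 at 15 min and 645, 728 and 691 at 60 min, and in psocs at 344, 264 and 229.6 untreated, 501, 368 and 421 at 15 min and 845, 760.0 and 736 at 60 min. In pRAD7 rad23Δ QCR10 was at 358 and 214 untreated, 404 and 242 at 15 min and 361 and 405 at 60 min, and in psocs rad23Δ at 259.5 and 218 untreated, 253 and 423 at 15 min and 742 and 670.1 at 60 min. The 60-min arrays of pRAD7 rad23Δ stood near its higher untreated array, while those of the other 3 strains were all at 645 or higher. The change was 1.44 ± 0.21 in pRAD7 and 0.47 ± 0.26 in pRAD7 rad23Δ, a difference of -0.97 ± 0.34 (adjusted p = 0.0316). In psocs and psocs rad23Δ the changes were 1.50 and 1.57, and their difference did not pass. The call was lost without any 1 of 7 arrays: pRAD7 untreated replicate 2 or 3, pRAD7 60-min replicate 2 or 3, pRAD7 rad23Δ untreated replicate 1, or either 60-min array of pRAD7 rad23Δ. The difference then ranged from -1.06 to -0.60, with adjusted p-values of 0.051 to 0.228.

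COX4, whose array values are given above, was the other. The difference between its change of -0.52 in pRAD7 rad23Δ and 0.51 in pRAD7 was -1.03 ± 0.32 (adjusted p = 0.0172). It was lost without untreated replicate 1 of pRAD7 rad23Δ (-0.55, adjusted p = 0.193), where COX4 was at 936 against 478 in replicate 2, and without 60-min replicate 2 of that strain (-1.02, 0.0557). In the psocs strains the COX4 changes were 0.62 and 0.48, and their difference of -0.14 did not pass.

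COX13 was the member that responded more in psocs rad23Δ than in pRAD7, by 0.95 ± 0.30 (adjusted p = 0.0411). These strains differ in RAD23, in the SOCS box and in RAD7 signal. Its changes were 0.77 in pRAD7, 1.04 in psocs, 1.15 in pRAD7 rad23Δ and 1.71 in psocs rad23Δ. The call was absent in the signals as deposited (0.58, adjusted p = 0.168) and under quantile normalization (0.61, 0.171). It was also lost without any 1 of 9 arrays, untreated replicates 1 and 3 and all 60-min replicates of pRAD7 and all untreated and 60-min replicates of psocs rad23Δ, where the difference ranged from 0.82 to 1.07. Members next to the threshold without passing it were RIP1 (-0.77, adjusted p = 0.0567), COX9 (0.98, 0.0692) and QCR8 (0.54, 0.0504) in pRAD7 rad23Δ against pRAD7, and ATP4 in psocs rad23Δ against pRAD7 (0.77, 0.066).

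The members' median in these differences turned with the scaling of the arrays. It was 0.07 in pRAD7 rad23Δ against pRAD7, where all genes had a median of 0.15, and -0.35 in the signals as deposited, where all genes had a median of -0.27. Before centring, the array medians at 60 min were 7.12 to 7.28 on the log2 scale in the RAD23 strains and 6.82 to 6.96 in the rad23Δ strains. No direction is therefore given for the members as a whole in the comparison of strains with and without RAD23.

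**Figure D4:**
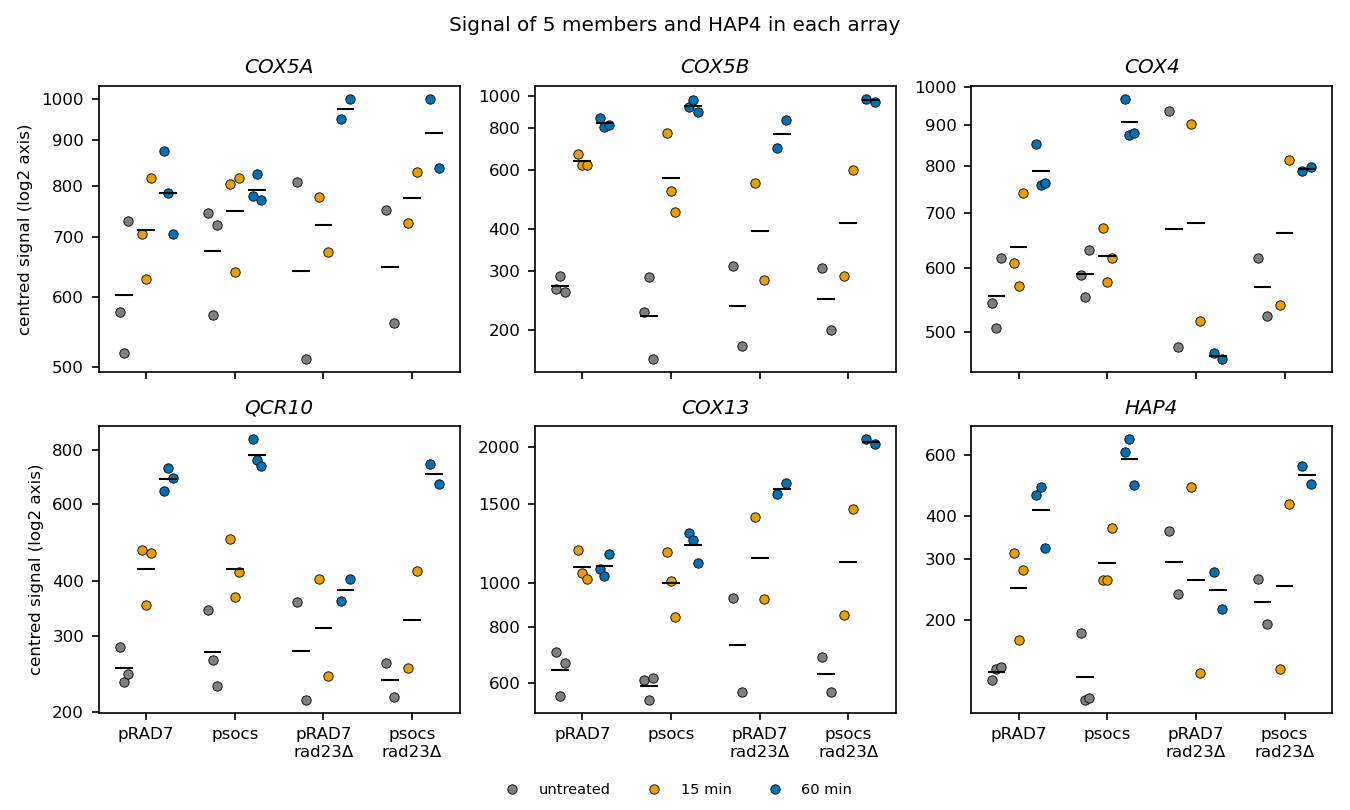
Centred signal (vertical axis, log2 scale) of COX5A, COX5B, COX4, QCR10, COX13 and the regulator HAP4 in each array, by strain (horizontal axis) and time (grey untreated, orange 15 min, blue 60 min). Points are arrays and bars are geometric means. COX5B climbs in every strain, and at 60 min the pRAD7 rad23Δ arrays of COX4, QCR10 and HAP4 lie below those of the other 3 strains.

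The genes that build, feed and control these complexes were taken as 8 lists of 100 genes in all, of which 77 were bright enough to be tested. CYC7, SHH4 and SHY1 lay under the brightness limit in the mean of the untreated arrays and passed it only through UV arrays, whereas none of the 33 subunit genes did. They remain in the 77 and in the totals of their lists, so a rise of these genes is no result. At 60 min 46 of the 77 were higher and 5 lower in pRAD7 (28.7% and 36.1% of all genes), 50 and 4 in psocs (30.8% and 34.0%), 33 and 10 in pRAD7 rad23Δ (32.6% and 28.2%) and 40 and 5 in psocs rad23Δ (31.2% and 28.8%). Apart from SHH4, an SDH4 paralogue dim before UV, the tested assembly factors and paralogues of complex II were all higher in each strain. They were led by SDH6 (2.78, 3.16, 2.47 and 2.65 in pRAD7, psocs, pRAD7 rad23Δ and psocs rad23Δ). Of 25 factors of complex IV, 17, 20, 11 and 13 were higher, among them SCO2, of the family that delivers copper to the oxidase (1.66, 1.77, 1.78 and 2.02), and COX20, a chaperone of the Cox2 subunit (1.59, 1.81, 1.55 and 1.60). Of 7 factors of complex III, 4, 4, 1 and 2 were higher, and the counts in the rad23Δ strains were not above the shares of all genes. CYT2, which attaches haem to cytochrome c1, rose by 1.25, 1.18, 1.97 and 1.61. CBP4, an assembly factor of the bc1 complex, rose by 1.08 in pRAD7, 1.14 in psocs and 0.76 in psocs rad23Δ, the last not without untreated replicate 2 or 60-min replicate 2 (0.60 to 0.73), and its change of 0.01 in pRAD7 rad23Δ did not pass.

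Of 11 assembly and regulatory genes of the ATP synthase, 5, 5, 7 and 6 were higher, against 28.7%, 30.8%, 32.6% and 31.2% of all genes. The largest changes were those of STF2 and STF1, which stabilise or assist the inhibitor of the enzyme, at 3.58 and 3.26 in pRAD7 and 3.23 and 2.73 in psocs rad23Δ. INH1, the inhibitor of ATP hydrolysis itself, rose by 2.30, 2.46, 1.29 and 2.30, in pRAD7 rad23Δ not without untreated replicate 2 (0.86, adjusted p = 0.14). Of the 9 ubiquinone synthesis genes 7, 7, 5 and 6 were higher, COQ4 by 1.84, 1.97, 1.49 and 1.27 and COQ3 by 1.60, 1.66, 1.22 and 1.58. The COQ4 call was lost in pRAD7 rad23Δ without untreated replicate 1 (1.00) and in psocs rad23Δ without untreated replicate 2 or 60-min replicate 2 (0.87 to 1.25).

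Among electron donors and cytochrome c, 4, 5, 3 and 4 of 7 were higher, against 28.7%, 30.8%, 32.6% and 31.2% of all genes. CYC7, which passed the brightness limit only through UV arrays, is among the 7, so these counts are no result about the list. GUT2, the glycerol-3-phosphate dehydrogenase of mitochondria, rose by 3.33, 3.20, 2.35 and 2.65. CYC7, the minor isoform of cytochrome c, is given as a level alone, since it was under the brightness limit before UV. Its group means were 4.40 to 5.53 on the log2 signal scale in untreated cells and 9.77 to 11.22 at 60 min.

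HAP4 encodes the limiting activating subunit of the Hap complex. In pRAD7 it was at 133, 144 and 146 untreated, 313, 175 and 278 at 15 min and 461, 485 and 322 at 60 min, and in psocs at 183, 117 and 118 untreated, 260.2, 261 and 369.6 at 15 min and 614, 668 and 492 at 60 min. In pRAD7 rad23Δ HAP4 was at 361 and 238 untreated, 485 and 139.5 at 15 min and 276 and 215 at 60 min, and in psocs rad23Δ at 263 and 194 untreated, 144 and 432 at 15 min and 559 and 497 at 60 min. The RAD23 strains and psocs rad23Δ climbed without overlap between untreated and 60 min, and in pRAD7 rad23Δ the groups overlapped. The untreated arrays of the rad23Δ strains lay above those of the RAD23 strains, but HAP4 was not called between untreated strains. These untreated values enter the differences between responses. HAP4 rose at 60 min by 1.56 ± 0.37 in pRAD7, 2.10 ± 0.37 in psocs and 1.22 ± 0.45 in psocs rad23Δ, the last not without untreated replicate 2 (1.00), 60-min replicate 1 (1.14) or 60-min replicate 2 (1.31). In pRAD7 rad23Δ its change was -0.27 ± 0.45, and the difference from pRAD7 was -1.83 ± 0.58 (adjusted p = 0.0198), lost without untreated replicate 1 (-1.53, 0.0979) or 60-min replicate 2 (-1.65, 0.0849) of pRAD7 rad23Δ. Like COX4 and QCR10, HAP4 was at its lowest 60-min values in pRAD7 rad23Δ, a strain in which SDH2, CYT1 and COX5B rose. Whether HAP4 has a part in either was not tested.

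Of the 11 regulators tested, HAP4 included, 4 were higher and 1 lower in pRAD7 and in psocs, none higher and 3 lower in pRAD7 rad23Δ, and 3 higher and 1 lower in psocs rad23Δ. Of all genes 28.7%, 30.8%, 32.6% and 31.2% were called higher at 60 min in the 4 strains and 36.1%, 34.0%, 28.2% and 28.8% lower, so these counts are no result about the regulators as a list. HAP5, a DNA-binding subunit of the same complex, rose by 1.15 ± 0.16 in pRAD7 and 1.28 ± 0.16 in psocs, and its changes of 0.23 in pRAD7 rad23Δ and 0.36 in psocs rad23Δ did not pass. The difference from the strain with RAD23 was -0.92 ± 0.26 in the pRAD7 pair (adjusted p = 0.00971) and -0.92 ± 0.26 in the psocs pair (adjusted p = 0.0283). The first was lost without 60-min replicate 2 of pRAD7 rad23Δ (-0.76, 0.0686) and the other without any 1 of 7 arrays (-0.97 to -0.81, 0.0581 to 0.0958).

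Of the 7 subunits encoded in mitochondrial DNA, 2 were bright enough to be tested. COX1, the core subunit of the oxidase, fell by 1.81 in pRAD7 and by 1.67 in psocs at 60 min, against changes of -0.20 in pRAD7 rad23Δ and 0.35 in psocs rad23Δ that did not pass. The differences were 1.61 ± 0.22 in the pRAD7 pair (adjusted p = 1.23e-05) and 2.02 ± 0.22 in the psocs pair (adjusted p = 8.13e-06). In the RAD23 strains COX1 thus moved against the nuclear members of its complex. OLI1, which encodes the proton-carrying ring of the ATP synthase, was lower in pRAD7 (-0.39), but -0.12 and not called in the signals as deposited and 0.14 and not called under quantile normalization, so no direction is given for it there. It was higher in pRAD7 rad23Δ (0.42; 0.27 and not called under either other scaling) and in psocs rad23Δ (0.70), and not called in psocs (-0.07). The OLI1 call in pRAD7 rad23Δ was lost without untreated replicate 2 (0.31) or 60-min replicate 2 (0.25) of that strain and without 60-min replicate 2 or 3 of pRAD7.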

How the data were processed

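RNA from 30 yeast samples was measured on Affymetrix Yeast S98 arrays, and the authors deposited 1 intensity per probe set and array, made with MAS 5.0 in Affymetrix Expression Console and scaled to a common trimmed mean (498.7 to 500.6 here). Of 9335 probe sets, 60 were controls, and 6504 had a single gene name (328 several, 2443 none). The brightest was kept for each of 5656 genes. Signals were raised to a floor (the 10th percentile, 8.50), put on the log2 scale and centred on the array median, which moved arrays by -0.33 to 0.13. The 4242 genes above the 25th percentile (6.53) were tested on all 30 arrays with limma 3.58.1 in R 4.3.3 (trend, Benjamini-Hochberg 0.05, 24 comparisons), and Python 3.11.15 with matplotlib 3.10.9 made the figures. Array values were given in full for the SDH genes, in each other complex the 2 members with the largest and the 1 with the lowest mean UV change, the COX5 pair, members called between untreated strains or between responses, and HAP4. From the pathway lists, 2 or 3 genes each were named by size of change at 60 min in pRAD7, HAP4 aside with fitted changes or group means alone. Members and lists were chosen with earlier results of these data known. The alternatives were signals without centring, quantile normalization, other dim-gene limits, no floor, the mean of a gene's probe sets, a fit to the compared groups alone, a replicate block, and leaving out each array. The 2 low-stress arrays were left out as an alternative chosen after seeing the data. The arrays' number limits the precision. The methods were tested on simulated data. No sequence was used here.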

Additional observations from a re-analysis of the deposited data

Results flagged for a closer look

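The 60-min response to UV differed by test between strains in 3 members, and each is listed for that reason. In pRAD7 rad23Δ against pRAD7 the log2 response of QCR10 differed by -0.97 and that of COX4 by -1.03, both lower in pRAD7 rad23Δ. Neither gene was called in psocs rad23Δ against psocs. In psocs rad23Δ against pRAD7 the response of COX13 differed by 0.95, higher in psocs rad23Δ. None of the 3 calls held whichever array was left out, and that of COX13 was absent without centring and under quantile normalization. Of all genes, 11.4% were called lower in pRAD7 rad23Δ and 7.50% higher in psocs rad23Δ, each response against that of pRAD7. The cause was not tested. No group had enough arrays for a test of single outlying samples.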

How the results depend on the processing

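Of the members' 191 calls, 170 remained without centring, 155 under quantile normalization, 154 in fits to the compared groups alone, 188 without the dim-gene limit, 190 with the stricter one, 191 without a floor and 191 with the mean of probe sets. With 2 or 3 arrays a group, small differences were not detectable. The counts that moved by more than 1.5 times were as follows, and the cause was not tested. Without centring and under quantile normalization, the 15-min counts became 3 and 2 in pRAD7 rad23Δ (from 5) and 5 and 2 in psocs rad23Δ (from 9), those between 15 and 60 min became 21 and 18 in pRAD7 (from 6) and 23 and 23 in psocs (from 10), and those of the 60-min response became 7 and 5 in pRAD7 rad23Δ against pRAD7 (from 2). In psocs rad23Δ against pRAD7 the single call was for a higher response, became 1 lower without centring and 0 under quantile normalization. Centring moved the median of all genes at 60 min in pRAD7 from 0.16 to -0.11. Fits to the compared groups alone gave 0 and 0 at 15 min in pRAD7 rad23Δ and psocs rad23Δ, 12 and 1 between 15 and 60 min in pRAD7 and pRAD7 rad23Δ, and 5 and 2 for the 60-min response of pRAD7 rad23Δ and psocs rad23Δ against pRAD7. Without the 2 low-stress arrays, the values were 12 and 19 at 15 min in pRAD7 rad23Δ and psocs rad23Δ, 3 and 5 between 15 and 60 min (from 7 and 14), and 4 and 3 for the 60-min responses against pRAD7. The change of OLI1 in pRAD7 turned to 0.14 at 60 min and to 0.069 between 15 and 60 min under quantile normalization.

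Leaving out each array in turn gave counts of 15 to 21, 13 to 20, 1 to 13 and 0 to 17 at 15 min (pRAD7, psocs, pRAD7 rad23Δ, psocs rad23Δ), 20 to 25, 23 to 26, 11 to 26 and 24 to 30 at 60 min, and 2 to 8, 6 to 13, 2 to 12 and 2 to 19 between these times. Between untreated strains the counts were 0, except 0 to 1 for pRAD7 rad23Δ against pRAD7. For the 15-min response all were 0. For the 60-min response they were 0 for psocs against pRAD7, 0 to 4 for pRAD7 rad23Δ against pRAD7, 0 to 1 for psocs rad23Δ against psocs and 0 to 2 for psocs rad23Δ against pRAD7.

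The deviations of same-numbered arrays correlated at over 0.1 in every pair between untreated psocs and psocs at 60 min (0.18, 0.34 and 0.51). In no other comparison with 3 pairs did every pair, and over all strains the values ran from -0.34 to 0.51. In the rad23Δ strains each comparison had 2 pairs of equal value. That value was 0.49 between untreated and 15 min in pRAD7 rad23Δ and -0.34 to -0.08 in the others. With the replicate number as a block, 26 members were called between untreated psocs and psocs at 60 min, as without it. Over all comparisons, 190 of the 191 calls remained and the 60-min counts were 24, 26, 22 and 28. With the block crossed with strain, 4 and 2 members were called for the 60-min responses of pRAD7 rad23Δ and psocs rad23Δ against pRAD7, and the comparisons of untreated strains could not be fitted.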
